A study of Mus musculus with 2 samples.

Results

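The insulin-like growth factor (IGF) genes examined here were Igf1, Igf2, Igf1r, Igf2r, Igfbp2, Igfbp3, Igfbp4, Igfbp5, Igfbp6 and Igfbp7, which are 10 of the 28692 genes counted. They were read in single cells of the stromal vascular fraction (SVF), the cells other than adipocytes that remain after digestion of fat, from gonadal white adipose tissue (gWAT) of male C57BL/6 mice at 13 weeks of age. The series held 1 library of Adipo-Pgam1 KO mice, in which Adipoq-Cre deletes a floxed Pgam1 gene in adipocytes, and 1 library of littermate controls, labelled wildtype, which per the study's methods carried the floxed gene without Cre. The number of mice behind each library was not given in the sources used here. The genes were chosen by measured values of these same libraries, namely their UMI-summed counts across cell types and in KO against control cells, among them a higher Igfbp5 count in KO fibroblasts. With 1 library per genotype and genes chosen in this way, all levels and ratios are descriptions, no p-value was computed, and a difference between genotypes cannot be told apart from a difference between these libraries.

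The control library held 8522 barcodes with 42859406 unique molecular identifiers (UMIs, each standing for 1 captured RNA molecule), and the KO library 2730 barcodes with 13821581 UMIs. Barcodes were kept from 500 detected genes upwards and with mitochondrial UMIs at or below 10%, and after removal of likely doublets 3616 control and 937 KO cells remained, with median depths of 6898 and 7494 UMIs. The libraries shared 9 barcode sequences in all and 0 among the cells kept. Clustering without the IGF genes gave 25 clusters. Marker genes named 19 of them, which fell into 13 cell classes. The other 6 clusters, with 473 control and 177 KO cells, took no class name. They stand outside the ranking of classes and are called by their leading gene. The fibroblast-like class, the precursors and connective tissue cells of fat, held 786 control and 190 KO cells, and each of its 8 markers was found in at least 93.4% of them in either library. Levels are CPM, the UMIs of a gene scaled to 1e6 UMIs of the class, followed by exact Poisson 95% intervals, and ratios carry exact conditional binomial 95% intervals, all of which cover counting error only. Adipocytes float off during the preparation of SVF, and Adipoq, the gene that drives the Cre, gave 23 UMIs over all control cells kept and 8 over the KO cells. Pgam1, the deleted glycolytic enzyme gene, was at 108.3 CPM in control and 104.3 CPM in KO fibroblast-like cells (log2 ratio −0.05, interval −0.24 to 0.13), and within 5 sub-clusters of these cells its log2 ratio lay between −0.15 and 0.08. These counts read the 3′ end of the transcript and were not used to check the genotype label.

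IGF1 and IGF2 are secreted growth factors that signal mainly through the tyrosine kinase receptor IGF1R, while IGF2R, the mannose 6-phosphate receptor, takes up IGF2 for degradation. The IGF-binding proteins (IGFBPs) hold the ligands in plasma and in the extracellular matrix, and can block or prolong their action. IGFBP7 is a related secreted protein with low affinity for IGFs. In adipose tissue the IGF system is known for its part in the growth and differentiation of fat cell precursors, and growth hormone induces Igf1 through its receptor GHR.

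Igf1, the ligand that growth hormone induces, was highest among the named classes in fibroblast-like cells and macrophage-like cells. It lies at chr10:87858265-87937042 on the plus strand (GRCm38). Its level in fibroblast-like cells was 1083 CPM (1062 to 1104) in the control and 1322 CPM (1282 to 1364) in the KO library. Macrophage-like cells followed at 360 CPM in control and 154 CPM in KO. Every other named class was at or under 94.3 CPM in either library, and the intervals of mesothelial-like, blood endothelial-like and pericyte and smooth muscle-like control cells, at 66.0 to 86.9 CPM, overlapped. The unnamed cluster led by Ptn was at 677 CPM in control and 1281 CPM in KO. That led by Hbb-bt was at 583 and 1037 CPM. The share of fibroblast-like cells with an Igf1 UMI was 73.8% in control and 87.9% in KO. In the control lymphocytes (the T, NK and B cell-like classes), which stand for free RNA here and had median depths of 4475, 4193 and 3983 UMIs against 12304 in fibroblast-like cells, the share was 5.32%. With all cells thinned to 2000 UMIs it was 2.02%, against 52.1% in control and 69.7% in KO fibroblast-like cells.

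Igf2, the ligand best known from fetal growth, marked blood endothelial-like cells. It lies at chr7:142650766-142666816 on the minus strand, where it overlaps the annotated gene Gm49394 on the same strand, a gene that was not in the count table. Blood endothelial-like cells reached 351 CPM (311 to 395) in control and 417 CPM (356 to 485) in KO. The next named control class, pericyte and smooth muscle-like cells, was at 17.95 CPM, 19.6-fold below, and in KO the same class was at 69.0 CPM from 13 UMIs, 6.04-fold below. The unnamed cluster led by Ptn was at 25.4 CPM in control. Fibroblast-like cells held only 17 Igf2 UMIs in control and 12 in KO. An Igf2 UMI was found in 33.8% of control blood endothelial-like cells, against 1.45% of the control lymphocytes.

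Igf1r, the signalling receptor of both ligands, was spread over many classes (chr7:67952827-68233668, plus strand). Control levels ran from 172 CPM (151 to 195) in mesothelial-like cells through 151 CPM in pericyte and smooth muscle-like, 149 CPM in T cell-like, 128 CPM in blood endothelial-like and 121 CPM in fibroblast-like cells to 109 CPM in group 2 innate lymphoid-like cells. Each of these overlapped its neighbour in the order. The unnamed clusters led by Ptn and Mt3 were at 233 and 176 CPM in control. Macrophage-like cells were lower, at 62.6 CPM in control and 27.96 CPM in KO. Neutrophil-like cells gave 410 CPM in control and 507 CPM in KO, but from 6 and 15 UMIs.

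Igf2r, the receptor that clears IGF2, was highest in stromal classes (chr17:12682406-12769664, minus strand, overlapped on the other strand by the antisense gene Airn). In the control library pericyte and smooth muscle-like cells were at 242 CPM (218 to 267) and fibroblast-like cells at 160 CPM (152 to 168), and these intervals did not overlap. In KO the same classes stood at 122 CPM each. Macrophage-like cells were near the lower end, at 22.2 CPM in control and 14.4 CPM in KO.

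The binding-protein genes differed in how many stromal classes held them. Igfbp2, which lies tail to tail with Igfbp5 on chromosome 1 with a gap of 5457 bases and no annotated gene between them, was found in mesothelial-like cells, the lining of the fat pad. Its level there was 503 CPM (466 to 541) in control and 417 CPM (347 to 498) in KO, and no other named class exceeded 4.68 CPM in either library. The unnamed clusters led by Mt3 and Ptn were at 58.7 and 16.2 CPM in control. Igfbp2 spans chr1:72824503-72852474 on the plus strand and Igfbp5 chr1:72857932-72874884 on the minus strand.

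Although Igfbp2 and Igfbp5 are neighbours, Igfbp5 reached further. Control lymphatic endothelial-like cells were highest at 3353 CPM (3163 to 3551), followed by mesothelial-like cells at 2595 CPM (2511 to 2680) and pericyte and smooth muscle-like cells at 2095 CPM (2023 to 2168), with no overlap between neighbours. In KO the order was mesothelial-like at 4282 CPM, pericyte and smooth muscle-like at 2417 CPM and lymphatic endothelial-like at 1244 CPM, from 20, 21 and 12 cells. Fibroblast-like cells came next of the named classes in both libraries, far below these, at 54.3 CPM (49.8 to 59.2) in control and 112 CPM (101 to 125) in KO. The unnamed cluster led by Ptn lay between, at 541 CPM in control and 916 CPM in KO. That led by Mt3 was at 92.2 and 97.9 CPM. In the lymphocytes Igfbp5 was at 15.8 CPM in control and 5.42 CPM in KO.

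Igfbp3, whose product is the main IGF carrier in plasma, was highest in blood endothelial-like cells (chr11:7206086-7213923, minus strand, 3539 bases from Igfbp1). The level there was 728 CPM (669 to 790) in control and 199 CPM (157 to 247) in KO. Control lymphatic endothelial-like cells were at 156 CPM (117 to 203). Fibroblast-like cells followed in control at 33.5 CPM (29.98 to 37.4) and overlapped pericyte and smooth muscle-like cells at 32.1 CPM. In KO fibroblast-like cells came next after blood endothelial-like cells, at 85.3 CPM (75.3 to 96.3). Lymphatic endothelial-like cells were at 32.7 CPM from 3 UMIs in KO, and these intervals overlapped.

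Igfbp4, which mostly restrains IGF action and is cleaved by PAPP-A, was found in all stromal classes and in macrophage-like cells (chr11:99041244-99054392, plus strand). Mesothelial-like cells led with 2368 CPM in control and 1522 CPM in KO. Control blood endothelial-like cells were at 1008 CPM (939 to 1081), fibroblast-like cells at 814 CPM (796 to 832), pericyte and smooth muscle-like cells at 731 CPM (689 to 775), lymphatic endothelial-like cells at 580 CPM (502 to 665) and macrophage-like cells at 380 CPM (365 to 396). None of these neighbours overlapped in the control. T cell-like cells followed at 163 CPM in control and overlapped group 2 innate lymphoid-like cells at 130 CPM. In KO they were at 196 CPM and overlapped macrophage-like cells at 198 CPM.

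Igfbp6, whose product prefers IGF2, was shared by mesothelial-like and fibroblast-like cells (chr15:102144362-102149511, plus strand). Mesothelial-like cells were at 5597 CPM in control and 5164 CPM in KO, and fibroblast-like cells at 1122 CPM (1101 to 1143) in control and 1057 CPM (1021 to 1094) in KO. No other named control class exceeded 34.6 CPM, and the lymphocyte background was 25.3 CPM. The unnamed cluster led by Hbb-bt was at 645 CPM in control and 709 CPM in KO. That led by Ptn was at 492 and 447 CPM. In KO the neutrophil-like class gave 101 CPM from 3 UMIs.

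Igfbp7 was high in 4 classes, pericyte and smooth muscle-like, blood endothelial-like, fibroblast-like and mesothelial-like cells (chr5:77349240-77408041, minus strand, with Polr2b and Gm34648 overlapping on the other strand). Pericyte and smooth muscle-like cells were highest, at 2444 CPM (2367 to 2523) in control and 3723 CPM (3453 to 4009) in KO. Fibroblast-like cells stood below blood endothelial-like cells in control, at 1602 CPM (1577 to 1628) and 1751 CPM (1660 to 1847). In KO they stood at 2752 CPM (2693 to 2811), above blood endothelial-like cells at 1958 CPM (1824 to 2100). Mesothelial-like cells came next in either library, at 1412 CPM in control and 1579 CPM in KO. No neighbours among these 4 classes overlapped in either library. Lymphatic endothelial-like cells were at 101 CPM from 35 UMIs and 480 CPM from 44 UMIs. Outside the named classes, the cluster led by Ptn was at 1957 CPM in control and 2793 CPM in KO. That led by Hbb-bt was at 1123 and 3414 CPM.

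**Figure D1:**
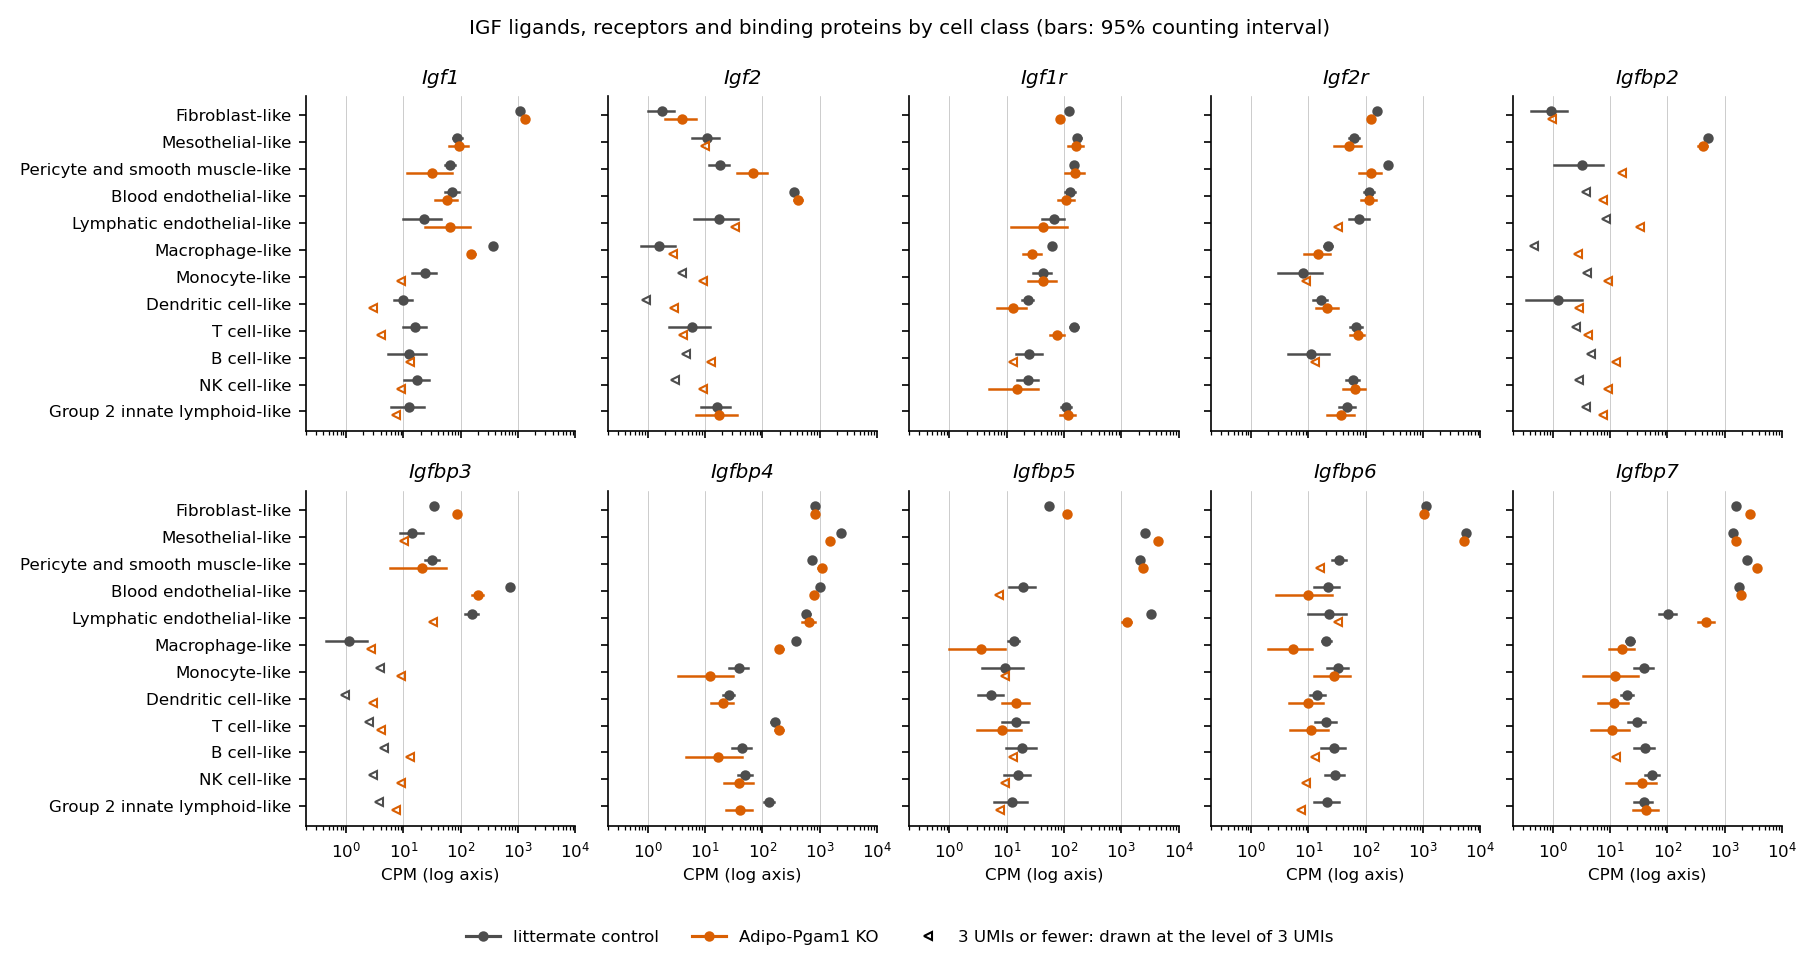
Level of each of the 10 genes (CPM, log axis) in each cell class, with a point for the control and a point for the KO library and bars for the exact Poisson 95% interval. Igfbp2 stands out in mesothelial-like cells (503 and 417 CPM), Igf2 in blood endothelial-like cells (351 and 417 CPM) and Igf1 in fibroblast-like cells (1083 and 1322 CPM), while Igf1r is spread over many classes.

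In fibroblast-like cells 8 of the 10 genes had at least 100 UMIs over both libraries and were compared between genotypes. Igfbp3, Igfbp5 and Igfbp7 reached 1.5-fold above the control in KO and 0 of the 8 reached 1.5-fold below it. Of all 9391 genes that passed the same minimum, 2.91% were 1.5-fold or more above the control and 6.02% 1.5-fold or more below. These contrasts belong to the values by which the genes were chosen, so nothing is read from the 3 of 8 against that share. The median log2 ratio was 0.16 over the 8 genes and −0.10 over all genes, and with TMM scaling, which moves all ratios up by 0.07, 3.68% of genes were higher and 4.22% lower.

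Igfbp3 had 324 UMIs in control and 261 in KO fibroblast-like cells, or 33.5 and 85.3 CPM, a 2.55-fold difference (log2 ratio 1.35, 1.11 to 1.59). Igfbp5 had 525 and 344 UMIs, or 54.3 and 112 CPM, a 2.07-fold difference (log2 ratio 1.05, 0.85 to 1.25). Igfbp7 had 15483 and 8415 UMIs, or 1602 and 2752 CPM, a 1.72-fold difference (log2 ratio 0.78, 0.74 to 0.82). In all 3 the KO interval lay wholly above the control interval, and they ranked 39, 78 and 148 from the top of the 9391 ratios.

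The other 5 genes stayed within 1.5-fold. Igf1 was 1.22-fold higher in KO (log2 ratio 0.29, 0.24 to 0.34). Igfbp4 differed by 0.04 on the log2 scale (−0.03 to 0.10) and Igfbp6 by −0.09 (−0.14 to −0.03). Both receptor genes were lower in KO, short of 1.5-fold. Igf1r was at 121 CPM in control and 85.3 CPM in KO (log2 ratio −0.50, −0.70 to −0.31), the closest to 1.5-fold of the genes that did not reach it. Igf1r passed 1.5-fold under 2 alternatives, at 116 and 71.0 CPM without the 10 highest cells of each library (log2 ratio −0.71, −0.93 to −0.49), and at a log2 ratio of −0.62 under a cell filter of 200 genes and 20% mitochondrial UMIs. Igf2r was at 160 and 122 CPM (log2 ratio −0.39, −0.56 to −0.22). Igf2, with 17 and 12 UMIs, and Igfbp2, with 9 and 2, were too low to compare.

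**Figure D2:**
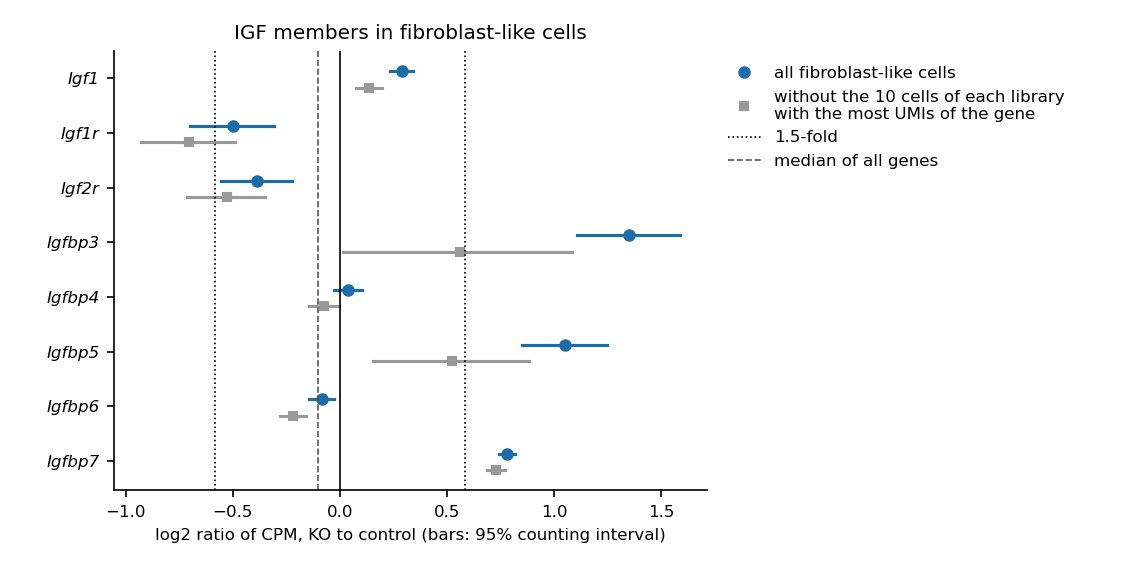
Log2 ratio of CPM, KO to control, for the members in fibroblast-like cells (786 control and 190 KO cells), with bars for the exact 95% counting interval. Igfbp3 (1.35), Igfbp5 (1.05) and Igfbp7 (0.78) lie above the 1.5-fold line and Igf1r (−0.50) and Igf2r (−0.39) lie below 0.

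The promoters of the 3 genes that were higher in KO fibroblast-like cells are shown because these genes share a direction. All 10 genes matched RefSeq entries, with 14 start sites (GRCm38.p6), and the 150 bases before each start were searched on both strands for the TATA box spellings TATAAA or TATATA or TATTTA, the GC box GGGCGG and the CCAAT box. TATATA and TATAAA can overlap each other, and the others were counted apart. Each sequence runs 5′ to 3′ on the strand of the gene, ends at the base before the RefSeq start, and has the matches in capitals. The windows are chr11:7213924-7214073 for Igfbp3, chr1:72874866-72875015 for Igfbp5 and chr5:77408046-77408195 for Igfbp7, all on the minus strand.
Igfbp3: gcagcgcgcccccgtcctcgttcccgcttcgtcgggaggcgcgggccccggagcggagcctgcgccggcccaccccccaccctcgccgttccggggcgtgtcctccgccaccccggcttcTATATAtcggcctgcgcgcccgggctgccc
Igfbp5: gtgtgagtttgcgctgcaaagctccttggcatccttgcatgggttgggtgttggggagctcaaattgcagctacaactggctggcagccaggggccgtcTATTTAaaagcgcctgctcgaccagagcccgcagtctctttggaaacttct
Igfbp7: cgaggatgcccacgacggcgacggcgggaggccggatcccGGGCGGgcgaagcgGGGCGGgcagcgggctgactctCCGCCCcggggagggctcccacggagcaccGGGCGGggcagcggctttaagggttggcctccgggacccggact
Igfbp3 held TATATA, with its first base 30 bases before the start, in a window of 78.7% G and C. Igfbp5 held TATTTA 51 bases before the start, in a window of 55.3% G and C. Igfbp7 held none of these TATA spellings and had GGGCGG at 110, 96 and 44 bases before the start and, on the other strand, read as CCGCCC, at 74. Over 32851 promoters of the same length, 2.97% held TATATA, 7.17% TATTTA and 28.6% GGGCGG. The 3 windows thus shared no match of the same letters, and a match is a description of letters only.

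The differences were carried by few cells for Igfbp3 and Igfbp5 and by nearly all cells for Igfbp7. Igfbp3 UMIs were found in 63 of 786 control and 33 of 190 KO fibroblast-like cells. Of the 261 KO UMIs of Igfbp3, 110 lay in 1 cell and 83.1% in 10 cells, against 69.4% in 10 cells of the control. Igfbp5 UMIs were found in 89 of 786 control cells (11.3%) and 54 of 190 KO cells (28.4%), and 96 of the 344 KO UMIs lay in 1 cell. The 10 cells with the most Igfbp5 held 73.3% of its UMIs in KO and 59.6% in control. KO fibroblast-like cells were deeper, with a median of 17361 UMIs against 12304. Thinned to 2000 UMIs per cell, the share of cells with Igfbp5 was 4.0% in control and 10.1% in KO, and with Igfbp3 3.10% and 8.51%. The thinned lymphocyte background was 2.69% in control and 1.56% in KO for Igfbp5.

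Without the 10 highest cells of each library Igfbp3 stood at 10.4 and 15.3 CPM (log2 ratio 0.56) and Igfbp5 at 22.2 and 31.9 CPM (log2 ratio 0.52), both under 1.5-fold. Since 10 cells are a larger share of 190 than of 786, this takes more from the KO library. The level outside those few cells was thus still higher in KO, by a smaller ratio. For Igfbp7, 774 of 786 control cells and 189 of 190 KO cells held a UMI. The median cell held 1433 CPM of it in control and 2536 CPM in KO, and the interquartile ranges, 968 to 1944 and 1822 to 3365 CPM, overlapped only slightly. Leaving out the 10 highest cells of each library gave 1550 and 2568 CPM of Igfbp7 (log2 ratio 0.73).

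**Figure D3:**
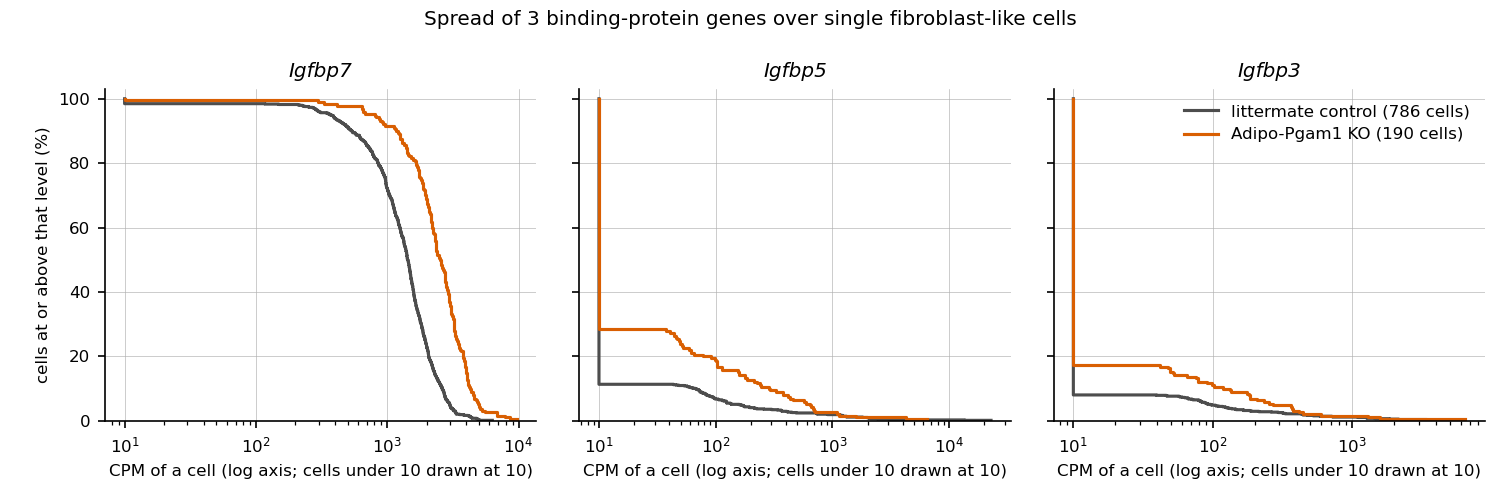
Share of fibroblast-like cells (%) at or above a given CPM of Igfbp3, Igfbp5 and Igfbp7 (log axis, cells under 10 CPM drawn at 10), with a line for each library. The Igfbp7 curve of the KO library is shifted as a whole (medians 1433 and 2536 CPM), whereas Igfbp3 and Igfbp5 are above 10 CPM in a minority of cells.

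Markers of other cell types were read in the same fibroblast-like cells. The summed level of the 8 Schwann cell markers was 16.04 CPM in control and 127 CPM in KO, with 1 marker at 0 in control and 0 in KO. UMIs of at least 3 of these markers were found in 1 control and 7 KO cells, which held 4 of the 344 KO UMIs of Igfbp5. Without them Igfbp5 was at 54.4 and 113 CPM (log2 ratio 1.05), Igfbp3 at a log2 ratio of 1.36 and Igfbp7 at 0.77. The 8 pericyte and smooth muscle markers, whose class is high in Igfbp5 and Igfbp7, summed to 194 and 198 CPM, led by Myl9 in control and Notch3 in KO, with none at 0. Leaving out the 79 control and 29 KO cells with UMIs of at least 3 of them gave log2 ratios of 1.44 for Igfbp3, 1.015 for Igfbp5 and 0.71 for Igfbp7. The 8 mesothelial markers summed to 129 and 123 CPM, nearly all of it Wt1, with 0 markers at 0 in control and 4 in KO. The 5 erythroid markers, led by Hbb-bs in both libraries, summed to 1924 CPM in control and 978 CPM in KO with none at 0, and the part of these other cell types in the ratios above was not tested beyond the cells left out.

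The fibroblast-like cells were clustered again into 5 sub-clusters, called by their leading gene. The Gatm sub-cluster, also led by Agt, held 205 control and 70 KO cells. The Cxcl1 sub-cluster held 206 and 36, the Mfap4 sub-cluster, also led by Cilp and Col8a1, 174 and 51, and the Thbs1 sub-cluster, also led by Cxcl14, 137 and 17. The Nov sub-cluster held 64 and 16 cells and had the highest markers of Pi16 and Dpp4 progenitors, an early fibroblast precursor of fat. Thus the Gatm cells made up 26.1% of control and 36.8% of KO fibroblast-like cells.

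Of the 8 genes with enough UMIs, Igf1, Igfbp3 and Igfbp5 differed most between the control sub-clusters. Igf1 was highest in the Gatm sub-cluster, at 2397 CPM in control and 2366 CPM in KO, and lowest in the Nov sub-cluster, at 64.4 CPM from 55 UMIs and 36.5 CPM from 9 UMIs. Igf1 in the Mfap4 sub-cluster was at 1303 and 1156 CPM. In KO it was at least 1.5-fold higher in the Cxcl1 sub-cluster, at 317 CPM (295 to 339) and 576 CPM (515 to 641), and in the Thbs1 sub-cluster, at 283 CPM (257 to 312) and 434 CPM (362 to 518). With the KO sub-clusters weighted as in the control, the Igf1 ratio of the whole class was 0.06 on the log2 scale in place of 0.29. The levels of Igf1 by sub-cluster depended on how finely the class was divided. With 4 sub-clusters (resolution 0.3), the one led by Gatm was a smaller set of 104 control and 56 KO cells. Lmod1 and Myh11 were among its other leading genes. Igf1 in this set was at 3565 CPM in control and 2296 CPM in KO, at least 1.5-fold lower (log2 ratio −0.63). At resolution 1.0 the Gatm sub-cluster (112 control and 57 KO cells) was again lower, at 3446 and 2275 CPM (log2 ratio −0.60). The highest KO level there lay in a sub-cluster led by Apln, which held 102 control and only 13 KO cells. It was at 946 CPM in control and 2749 CPM in KO (log2 ratio 1.54).

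Igfbp7 was higher in KO in each of the 5 sub-clusters. The log2 ratio was 0.69 (0.63 to 0.75) in Gatm, 0.71 (0.62 to 0.80) in Cxcl1, 0.74 (0.67 to 0.82) in Mfap4, 0.98 (0.86 to 1.10) in Thbs1 and 0.51 (0.31 to 0.72) in Nov cells, the last under 1.5-fold. Its lowest levels were in the Nov sub-cluster, 804 CPM in control and 1148 CPM in KO.

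The largest Igfbp5 ratio lay in the Gatm sub-cluster. There the mean log2 fold of the Schwann cell markers over the other fibroblast-like cells was 0.91. In the other 4 sub-clusters it was −0.48 to −0.34. Igfbp5 was at 15.3 CPM (10.9 to 20.8) in control and 169 CPM (146 to 195) in KO in the Gatm sub-cluster, from 40 and 185 UMIs (log2 ratio 3.47, 2.97 to 4.0). KO cells with UMIs of at least 3 Schwann cell markers gave 4 of these 185 UMIs, and 161 UMIs of Igfbp7 in the same sub-cluster. The share of Gatm cells with an Igfbp5 UMI was 7.32% (4.15 to 11.8) in control and 40.0% (28.5 to 52.4) in KO. Without the highest cell of each library the levels were 9.22 and 83.1 CPM, and with coarser or finer sub-clustering (resolution 0.3 or 1.0) the log2 ratio was 3.36 or 3.34. In the Nov sub-cluster, where Igfbp5 was highest in control, it was at 477 CPM (432 to 526) and 515 CPM (429 to 613), with overlapping intervals. In the Cxcl1, Mfap4 and Thbs1 sub-clusters it was at 6.89, 18.3 and 13.5 CPM in control and at 10.5, 23.2 and 20.9 CPM in KO, and in each of these the intervals overlapped. Thinned to 2000 UMIs, the Gatm shares were 1.96% (0.54 to 4.94) and 14.3% (7.07 to 24.7).

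Igfbp3 had another place. It was highest in the Mfap4 sub-cluster, at 128 CPM (114 to 144) in control and 235 CPM (204 to 269) in KO, from 288 and 202 UMIs. Of the 202 KO UMIs 110 lay in 1 cell, and without the highest cell of each library the levels were 111 and 109 CPM. The share of Mfap4 cells with an Igfbp3 UMI was 21.8% in control and 17.6% in KO. In the Gatm sub-cluster 9 and 30 UMIs, and in the Cxcl1 sub-cluster 10 and 22 UMIs, gave 3.43 and 27.4 CPM and 4.05 and 38.6 CPM, under the minimum for a comparison. The Nov sub-cluster, high in Igfbp5, held 2 control and 0 KO UMIs of Igfbp3. At resolution 0.3 Igfbp3 was higher in KO in the Mfap4 sub-cluster (log2 ratio 0.78), but 110 of its 179 KO UMIs lay in that same 1 cell. This ratio thus rested on 1 cell as well. At resolution 1.0 Igfbp3 was at 270 CPM in control and 539 CPM in KO in a sub-cluster led by Chrdl1, where 110 of the 200 KO UMIs lay in the same cell. In a sub-cluster led by Col8a1 it was at 42.3 CPM from 61 UMIs and 3.64 CPM from 2 UMIs (log2 ratio −3.54, −6.62 to −1.62), which is under the minimum and lower in KO.

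Igf1r was at least 1.5-fold lower in KO in the Mfap4 sub-cluster, at 133 and 73.2 CPM, and in the Thbs1 sub-cluster, at 154 and 66.0 CPM, and within 1.5-fold in the other 3. Igf2r lay between −0.56 and −0.23 on the log2 scale in all 5. These calls also changed with the resolution. At resolution 0.3 the sub-cluster led by Thbs1 was a larger set of 455 control and 71 KO cells, with a log2 ratio of −0.46 for Igf1r. Igf1r was lower in 1 of 4 sub-clusters at resolution 0.3 and in 4 of 7 at resolution 1.0. Igf2r was lower in 1 of 4 (log2 ratio −0.62) and in 2 of 7, down to −0.93. Igfbp6 ran from 549 CPM in Gatm to 2238 CPM in Nov cells of the control and Igfbp4 from 650 CPM in Gatm to 1048 CPM in Cxcl1 cells. Neither reached 1.5-fold in any of these 5 sub-clusters. At resolution 0.3 Igfbp6 was higher in KO in the smaller Gatm sub-cluster (log2 ratio 0.62). At resolution 1.0 Igfbp4 was higher in the Apln sub-cluster, with 13 KO cells (log2 ratio 0.62).

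**Figure D4:**
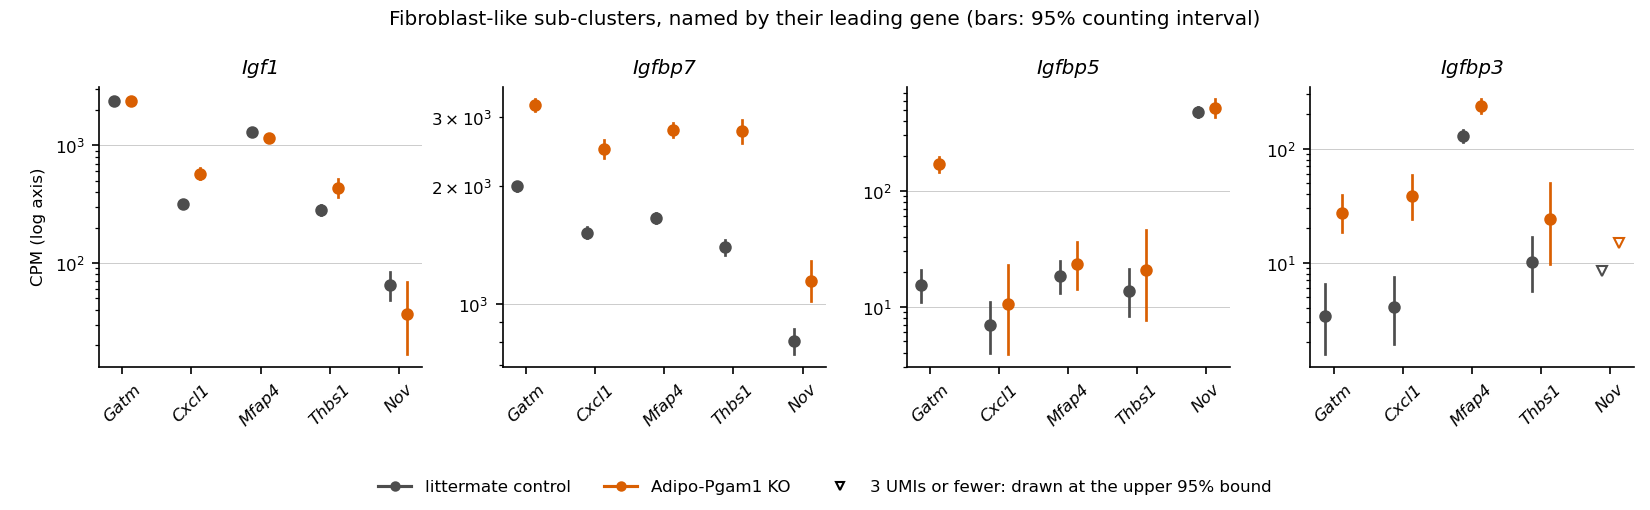
Level (CPM, log axis) of the IGF genes in the 5 fibroblast-like sub-clusters, named by their leading gene, in the control and the KO library, with bars for the exact Poisson 95% interval. Igfbp5 separates in the Gatm sub-cluster (15.3 and 169 CPM) and overlaps in the Nov sub-cluster (477 and 515 CPM), while Igfbp7 is higher in KO in each.

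Beyond fibroblasts, 6 classes had at least 50 cells in each library.

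Blood endothelial-like cells (151 control and 60 KO cells) had 6 genes to compare, of which 0 were at least 1.5-fold higher and 1 lower, beside 4.04% and 9.96% of all 2179 genes. The lower gene was Igfbp3, with 568 UMIs in 67 of 151 control cells and 80 UMIs in 19 of 60 KO cells, or 728 and 199 CPM (log2 ratio −1.87, −2.23 to −1.53). The direction was opposite to that in fibroblast-like cells. The 10 highest control cells held 65.8% of these UMIs and the 10 highest KO cells 87.5%, and without them, an alternative chosen after seeing the data, the levels were 292 and 30.6 CPM (log2 ratio −3.25). Igf2 was at 351 and 417 CPM (log2 ratio 0.25, −0.04 to 0.53), and without the 10 highest cells at 185 and 41.2 CPM (log2 ratio −2.16). Those 10 cells held 51.1% of the Igf2 UMIs in control and 91.7% in KO, and 10 cells are a larger share of 60 than of 151. This removal lowers the KO level by its construction, so nothing is read from the change of sign. Igfbp7, at a log2 ratio of 0.16, also changed sign in this way (−0.47). Igfbp4 was at 1008 and 809 CPM and Igf1r at 128 and 109 CPM, and without the 10 highest cells both were past 1.5-fold lower, at 701 and 293 CPM (log2 ratio −1.26) and at 98.6 and 48.0 CPM (log2 ratio −1.04). Pericyte and smooth muscle markers in these cells summed to 653 CPM in control, led by Rgs5, and 434 CPM in KO, led by Tagln, with 0 and 1 of the 8 at 0, and their part in the result was not tested.

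Macrophage-like cells (650 and 95 cells) had 6 genes to compare, of which 0 were at least 1.5-fold higher and 5 lower in KO, beside 4.13% and 11.6% of all 7165 genes. Igf1 was at 360 CPM (345 to 375) in control and 154 CPM (132 to 179) in KO (log2 ratio −1.22, −1.46 to −1.0). Igf1r was at 62.6 and 27.96 CPM (log2 ratio −1.16, −1.74 to −0.63) and Igfbp4 at 380 and 198 CPM (log2 ratio −0.95, −1.15 to −0.75). For these 3 the KO interval lay wholly below the control interval. Igfbp6, at 20.5 and 5.41 CPM, stood no higher in control than the lymphocyte background of 25.3 CPM. Igf2r, at 22.2 and 14.4 CPM, was 1.54-fold lower, just past the threshold, with an interval that included 0 (−1.47 to 0.13), and Igfbp7, 1.38-fold lower, was just short of it.

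The macrophage-like class consisted of 2 clusters whose shares differed. The cluster led by Folr2, a gene of resident macrophages, made up 54.6% of control and 34.7% of KO macrophage-like cells, and the cluster led by Lyz1 the rest. Igf1 was at 723 and 410 CPM in the Folr2 cluster (log2 ratio −0.82, −1.10 to −0.55) and at 128 and 60.4 CPM in the Lyz1 cluster (log2 ratio −1.08, −1.53 to −0.65). Igfbp4 was at 911 and 672 CPM in the Folr2 cluster and 40.9 and 23.4 CPM in the Lyz1 cluster. With KO clusters weighted as in the control, the log2 ratio of the class was −0.87 for Igf1, −0.98 for Igf1r and −0.46 for Igfbp4, the last under 1.5-fold. Fibroblast markers in macrophage-like cells summed to 364 CPM in control and 177 CPM in KO, led by Dcn at 186 and 66.8 CPM, with none of the 8 at 0. Erythroid markers summed to 5489 and 1800 CPM, with none of the 5 at 0, and the part of such RNA in the lower values was not tested.

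The lymphoid classes gave few values. T cell-like cells had 3 genes to compare, of which 0 were at least 1.5-fold higher and 1 lower, beside 3.17% and 5.69% of 2933 genes. The lower gene was Igf1r, at 149 CPM (128 to 173) in control and 76.6 CPM (57.9 to 99.5) in KO (log2 ratio −0.96, −1.42 to −0.52). In cells thinned to 2000 UMIs the log2 ratio was −0.20, under 1.5-fold. Most of these UMIs came from 1 cluster led by Trdc, the constant region of the T cell receptor delta chain, with 55 control and 21 KO cells. It held 147 of the control and 43 of the KO UMIs, at 486 CPM (410 to 571) and 279 CPM (202 to 375), while the other T cell-like cluster was at 33.1 CPM (22.2 to 47.6) and 22.5 CPM (12.001 to 38.5). The share of T cell-like cells with an Igf1r UMI was 28.3% in control and 21.7% in KO. Group 2 innate lymphoid-like cells had 2 genes, of which 0 were higher and 1 lower, beside 5.90% and 8.64% of 1933 genes. The lower gene was Igfbp4, at 130 CPM (106 to 158) from 104 UMIs in control and 40.3 CPM (23.0 to 65.4) from 16 UMIs in KO, beside 95.3 and 124 CPM in the lymphocytes. Among these, Igfbp4 was at 163 and 196 CPM in T cell-like, 49.8 and 39.9 CPM in NK cell-like and 43.7 and 17.1 CPM in B cell-like cells. For this gene the joint lymphocyte value is thus not taken as free RNA. In dendritic cell-like cells Igfbp4 was at 25.7 and 20.5 CPM, and in NK cell-like cells no member had enough UMIs.

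Mesothelial-like, lymphatic endothelial-like and pericyte and smooth muscle-like cells, where several binding-protein genes were highest, had 20, 12 and 21 KO cells and were not called. Their values are given side by side. Igfbp5 was at 2595 and 4282 CPM in mesothelial-like and at 3353 and 1244 CPM in lymphatic endothelial-like cells, in control and KO. Igfbp7 was at 2444 and 3723 CPM and Igfbp4 at 731 and 1084 CPM in pericyte and smooth muscle-like cells, and Igf2r there was at 242 and 122 CPM.

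**Figure D5:**
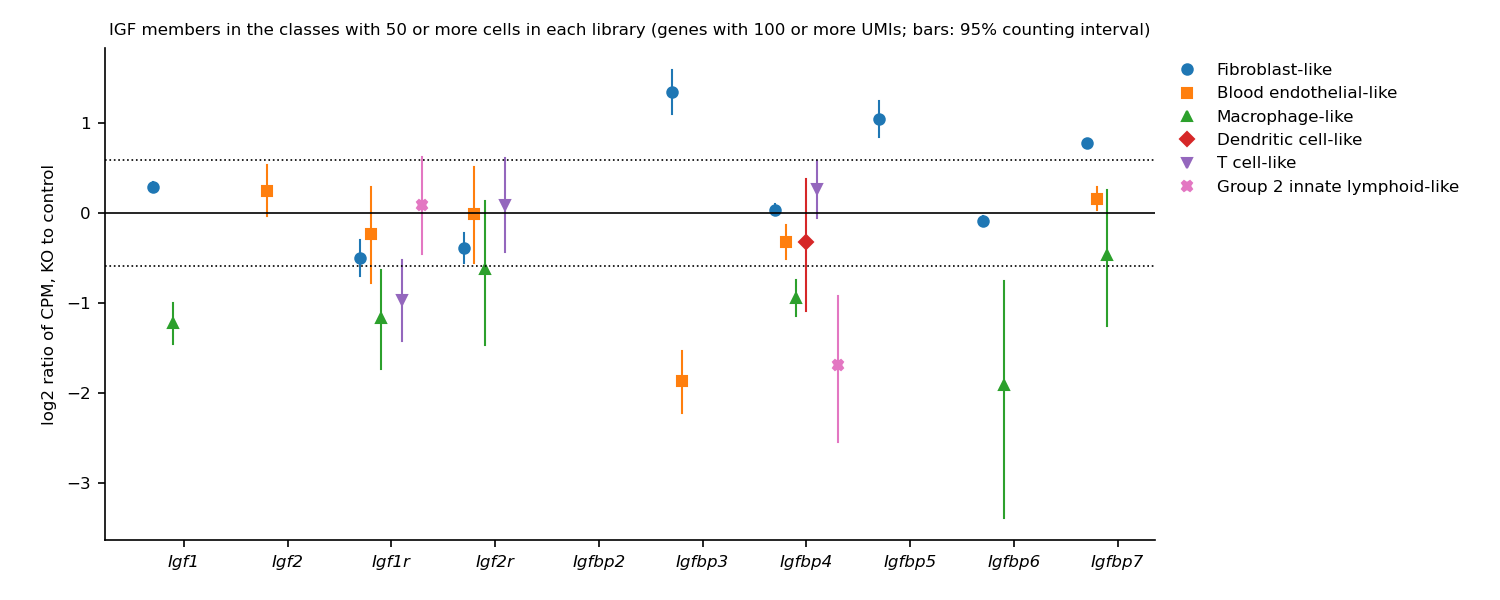
Log2 ratio of CPM, KO to control, of each IGF gene with at least 100 UMIs in the classes with at least 50 cells in each library, with bars for the exact 95% counting interval. Igfbp3 is higher in fibroblast-like (1.35) and lower in blood endothelial-like cells (−1.87), and the macrophage-like values all lie below 0.

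A list of 42 other genes of the IGF pathway was read in fibroblast-like cells, of which 32 had at least 100 UMIs. Of these, 3 were at least 1.5-fold higher in KO and 0 lower, beside 2.91% and 6.02% of all 9391 genes, and their median log2 ratio was −0.03. Htra1, a secreted protease that can cleave IGFBPs, was at 191 CPM (182 to 200) in control and 302 CPM (283 to 323) in KO (log2 ratio 0.67, 0.55 to 0.78). Pappa2, the protease of IGFBP3 and IGFBP5, was at 9.62 CPM (7.8 to 11.8) and 17.98 CPM (13.5 to 23.4), with a log2 ratio of 0.90 (0.39 to 1.40). Socs2, the feedback inhibitor of growth hormone signalling, was at 34.7 and 53.0 CPM (log2 ratio 0.61, 0.33 to 0.89). For each of these 3 the KO interval lay above the control interval.

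Their partners with enough UMIs stayed within 1.5-fold. Pappa, the protease of IGFBP4, was at 28.9 and 28.8 CPM, and its inhibitor Stc2 at 8.59 and 8.18 CPM, while Stc1 had 0 UMIs in either library, where 3 UMIs, taken as the limit for a count of 0, would be 0.31 CPM in control and 0.98 CPM in KO. Among receptors, Insr, the insulin receptor, was at 44.8 and 46.4 CPM. Ghr, the growth hormone receptor, was at 60.0 and 74.2 CPM (log2 ratio 0.31, 0.08 to 0.53). The receptor substrate Irs1 was at 42.9 and 28.8 CPM (log2 ratio −0.58, −0.93 to −0.24), just short of 1.5-fold, and Irs2 at 59.6 and 50.7 CPM. Grb10, an adaptor that dampens the receptors, was at 92.1 and 102.7 CPM. None of the 15 genes of PI3K, Akt and mTOR signalling reached 1.5-fold.

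The genes most alike in pattern were taken from 10899 genes by Pearson correlation of log2(CPM + 1) over 26 points, the 13 classes in 2 libraries, which share libraries, depth and free RNA. Igfbp7 was most like Sparc (r = 0.96), Pdgfd and Hspg2, and Igfbp2 most like Fras1 (r = 0.96), Krt19 and Msln. Igfbp5 followed Ptprf (r = 0.94), Pdlim3 and Ccdc141. Igfbp3 followed Arhgef28 (r = 0.95), Mpzl1 and Hoxb5, Igfbp4 Tacc2 (r = 0.91), Cd151 and Rhoc, and Igfbp6 Ccdc80 (r = 0.91), Sfrp2 and Sema3c. Msln and Krt19 are among the mesothelial markers that named that class. Igf1 was most like Ctsf (r = 0.86), Ecm1 and Ctsl, and Igf2 most like Sema3g (r = 0.86), Gper1 and Npr3. The receptors had looser matches, Igf1r with Aldoa (r = 0.81), Pcnx and Spr, and Igf2r with 4930402H24Rik (r = 0.81), its antisense overlap Airn (r = 0.78) and Nbeal1. Among the 10 genes themselves the closest pairs were Igfbp3 with Igfbp7 (r = 0.76) and Igf1 with Igfbp4 (r = 0.74).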

How the data were processed

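SVF cells of gWAT were profiled by the authors with the 10x 3′ v3 chemistry in 1 control and 1 KO library. Per the labels, Cell Ranger 3.0.1, Seurat 3.1.5 and R 4.0.1 were used on the mm10 build. The deposited values are UMI counts per gene and barcode, whole numbers without normalization, from barcodes with at least 500 UMIs. The counts come from transcript 3′ ends, so levels were compared within a gene and not between genes.

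Barcodes under 500 genes or over 10% mitochondrial UMIs were dropped. The highest Scrublet doublet scores per library were removed, at 0.8% per 1000 barcodes. Both libraries were clustered together with scanpy 1.11.5 and leidenalg 0.10.2 (2000 variable genes, 30 principal components, 20 neighbours, shared-neighbour weights under 0.0667 removed, resolution 0.5), with the IGF family genes left out. A cluster took a class name when its mean marker z-score exceeded 0.5 and the next class by 1, with at least 3 and at least 50% of its markers in 10% of cells. A name was withheld where the leading genes held more markers of another class. It was also withheld from shallow clusters with no own marker among those genes, and for innate lymphoid cells where CD3 genes were found. The rule was in part fixed with the clusters in view, and another naming could give other classes. Classes with at least 50 cells in each library were compared.

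UMIs were summed per class and library with numpy 2.4.6 and scipy 1.17.1. Genes with at least 100 UMIs over both libraries were called at 1.5-fold. Counts under 3 were set to 3 for the calls, and in the ratios a count of 0 was. No ratio was formed where both counts were 3 or fewer. TMM factors came from edgeR 4.0.16. The scripts were tested on simulated counts. Genes named were all 10 members, the 3 most alike of each by correlation among genes with at least 200 UMIs, and the pathway genes past 1.5-fold or listed for their role. The members, the marker and pathway lists and the settings were chosen with earlier results of these data known. Gene positions are from GENCODE and promoters from RefSeq, both on GRCm38. The tissue, array and culture data of the study were not analysed here. The value of 1 marker gene is not reported here.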

Additional observations from a re-analysis of the deposited data

Results flagged for a closer look

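Igfbp3 moved in opposite directions in the 2 classes where it was compared. Its log2 ratio of KO to control was 1.35 in fibroblast-like cells and −1.87 in blood endothelial-like cells, and this difference was not tested, since each genotype had 1 library.

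The other values come from clusters that took no class name and so stood outside the comparisons, where the KO level was at least 1.5-fold above the control level. The cluster led by Hbb-bt and other haemoglobin genes (149 control and 49 KO cells) also held all 8 fibroblast markers. There Igfbp7 was at 1123 and 3414 CPM (log2 ratio 1.60), Igf1 at 583 and 1037 CPM (0.83) and Igfbp4 at 518 and 804 CPM (0.64). The cluster led by Mt3, with the epithelial genes Krt8 and Foxj1 (85 and 27 cells), had Igfbp7 at 492 and 1327 CPM (1.43), Igfbp4 at 237 and 609 CPM (1.36) and Igf1r at 176 and 337 CPM (0.94). The cluster led by Ptn (80 and 20 cells) had Igf1 at 677 and 1281 CPM (0.92) and Igfbp5 at 541 and 916 CPM (0.76). Each of these clusters had fewer than 50 KO cells.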

How the results depend on the processing

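Each value rests on 1 library per genotype, and the KO library had fewer cells, which limits the genes that could be compared. No paired analysis was possible because each genotype had 1 library. For the 3 genes called in fibroblast-like cells, the direction held under all alternatives. The log2 ratio of Igfbp3 was 1.91 under a cell filter of 1000 genes and 5% mitochondrial UMIs, 1.07 in cells thinned to 2000 UMIs, 0.98 as a mean over cells and 0.56 without the 10 highest cells. That of Igfbp5 was 1.27 thinned, 0.51 as a mean over cells and 0.52 without the 10 highest cells, the last pair under 1.5-fold. That of Igfbp7 was 0.85 with TMM and 0.85 with median-of-ratios factors, 0.84 as a mean over cells, 0.73 without the 10 highest cells and 0.71 without cells with pericyte and smooth muscle markers. The cause of these shifts was not tested beyond the construction of each alternative. Of the 8 genes, 2 were higher at 2-fold (0.894% of all genes), and 1 was lower under a cell filter of 200 genes and 20% (6.59% of all genes). With a minimum of 20 UMIs Igf2 also entered, and 4 of 9 were higher (6.13% of all genes). In macrophage-like cells Igf1 ranged from −2.22 to −0.87 and Igfbp4 from −1.75 to −0.46. The lower ends came from leaving out the 10 highest cells, which takes more from 95 KO than from 650 control cells. Those cells held 60.8% of the KO and 12.3% of the control UMIs of Igf1. Igf1r in T cell-like cells ranged from −1.90, without the 10 highest cells, to −0.20. Igfbp4 in group 2 innate lymphoid-like cells ranged from −1.84 to −0.82 under the other alternatives. Without the 10 highest cells of each library it had 62 UMIs in control and 0 in KO (log2 ratio −3.17 with 0 set to 3). These 10 cells, too, are a larger share of the KO than of the control cells. The weighting of KO cells by the control's sub-clusters or clusters, and the removal of the 10 highest cells outside fibroblasts, were chosen after seeing the data.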
